A study of Mus musculus with 12 samples.

Results

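The interferon regulatory factors are a family of transcription factors, and the account here follows 8 of their genes, Irf1, Irf2, Irf3, Irf4, Irf5, Irf7, Irf8 and Irf9, in mouse melanoma cells. The genes were chosen by name, with no threshold on a level or change, and all 8 were found among the 55487 genes of the count table. Of these, 7 passed the filter on low counts and were tested together with the other genes, 14591 in all. Irf4 did not pass and is described by its counts. The cells were B16F10, a melanoma line of the mouse, with the genotype given as WT in every group. They were kept for 24 h in conditioned medium (CM), which is medium taken from cultures of bone-marrow-derived macrophages (BMDM), and their RNA was then sequenced. The 4 groups had 3 libraries each and differed in what the macrophages had received. The M0 group had medium from macrophages kept in plain DMEM, and the M1 group from macrophages given INF-γ (as the labels spell it) at 20 ng/ml. The M2 group had medium from macrophages given IL-4 at 20 ng/ml. The TAM group had medium from macrophages kept in 75% B16F10 CM. The sources used here do not say whether the cytokine or the tumour medium was removed before collection, so carried-over agent and macrophage products cannot be told apart. No label ties replicate libraries to separate cultures. The p-values therefore set a difference between groups only against the spread of libraries within groups, which may be technical. In the fit used for calls, that spread was estimated from all 4 groups together. A comparison thus also depends on libraries outside it.

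These factors share a DNA-binding domain that recognises repeats of GAAA, the core of the interferon-stimulated response element (ISRE). Type II interferon acts on a different element, the gamma-activated site (GAS), and IRF1 is a well-known gene of that first wave. Type I interferon acts through ISGF3, a complex in which IRF9 is joined by STAT proteins such as STAT2. IRF3, IRF5 and IRF7 are latent factors that kinases activate after nucleic acids or microbial products are sensed, while IRF4 and IRF8 are best known from lymphocytes, macrophages and dendritic cells. In melanocytes IRF4 also works with MITF at the tyrosinase gene.

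The start regions of 3 members, Irf1, Irf2 and Irf8, held a GAS match, spelt TTCNNNGAA on either strand, and are printed for that reason. These genes were higher in the M1 group, but so were Irf5, Irf7 and Irf9, whose windows held no match. The sequences are bases before the RefSeq start of GRCm38.p6, on the plus strand, 5′ to 3′. That of Irf2 has 237 bases: it ends before the gene start given below and so stops short of the RefSeq start. Capitals mark the matches: 1 in Irf1, 2 in Irf8, and in Irf2 an ISRE core (GAAANNGAAA, or TTTCNNTTTC on the other strand) followed by a GAS match.
Irf1 chr11:53769764-53770013: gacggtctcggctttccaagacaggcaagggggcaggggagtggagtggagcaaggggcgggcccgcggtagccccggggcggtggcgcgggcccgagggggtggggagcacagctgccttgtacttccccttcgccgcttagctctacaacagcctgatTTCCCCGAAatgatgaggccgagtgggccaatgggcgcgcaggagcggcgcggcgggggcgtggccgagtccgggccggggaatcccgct
Irf2 chr8:46739495-46739731: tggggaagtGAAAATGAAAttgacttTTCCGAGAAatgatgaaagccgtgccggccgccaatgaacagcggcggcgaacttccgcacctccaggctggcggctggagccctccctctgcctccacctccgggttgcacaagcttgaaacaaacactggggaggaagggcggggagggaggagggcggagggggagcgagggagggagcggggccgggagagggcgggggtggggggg
Irf8 chr8:120736108-120736357: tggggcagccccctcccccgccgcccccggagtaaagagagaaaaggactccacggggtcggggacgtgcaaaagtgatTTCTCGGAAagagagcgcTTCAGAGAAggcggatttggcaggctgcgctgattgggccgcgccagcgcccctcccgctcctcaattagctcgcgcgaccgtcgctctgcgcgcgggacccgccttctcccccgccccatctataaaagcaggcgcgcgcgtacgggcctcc
The match in Irf1 lay 90 to 82 bases before the RefSeq start. In Irf2 the ISRE core lay 241 to 232 bases and the GAS match 224 to 216 bases before it, without overlap. In Irf8 the pair lay 171 to 163 and 153 to 145 bases before it. Windows of 300 bases, 250 before to 50 after a start, were available for 8 of 8 members, 11 windows in all. Among all 32851 such windows, 8.3% held a GAS match, 3.44% an ISRE core, 0.454% both, and 0.457% at least 2 GAS matches. The letters of neither motif were in the windows of Irf3, Irf4, Irf5, Irf7 or Irf9. A match of letters is a description and was not tied to binding by any measurement here.

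Library totals lay between 15916756 and 20863973 counts. M0 replicate 1 stood apart: across genes, Pearson's r of its log2 CPM was 0.951 and 0.952 with M0 replicates 2 and 3, while all other pairs within a group had r of 0.996 (rounded). It also gave 7.11% of its counts to ribosomal protein genes, against 3.21% to 3.75% in the other 11 libraries, and its reads fell on shorter genes, with a count-weighted exon length of 4545 bp against 5819 to 6091 bp. Changes of the members, and counts over gene lists, are therefore given also without it where that changes a call, turns a direction or moves a value by over 1.5 times. Levels are CPM (counts scaled to the library total) after TMM scaling, changes are log2 with a standard error (SE), and a change was called at an adjusted p under 0.05 in edgeR's quasi-likelihood test with Benjamini-Hochberg adjustment over all 14591 genes. In bulk RNA, fewer cells with a transcript and less transcript per cell cannot be told apart.

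**Figure D1:**
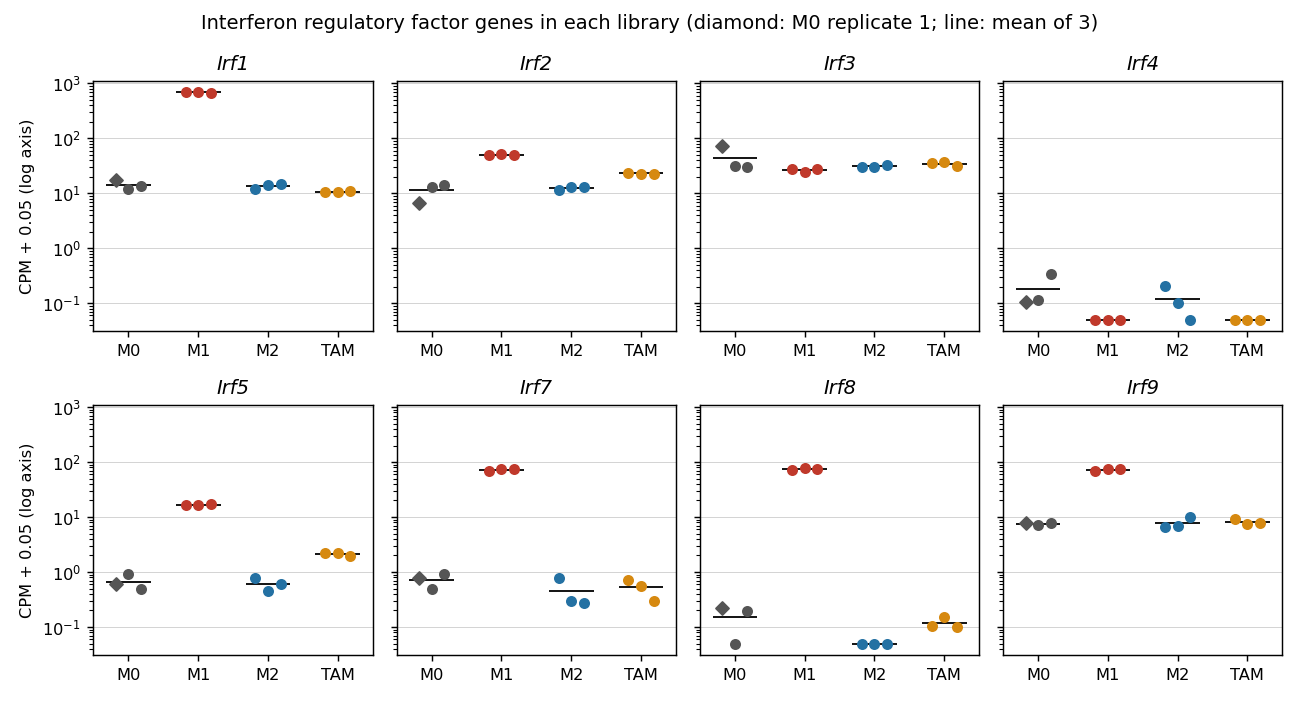
Level of each of the 8 genes in each library (vertical log axis, CPM after TMM scaling + 0.05, horizontal axis the 4 groups). Points are libraries and lines are means of 3, with 0.05 added so that 0 can be drawn. The diamond is M0 replicate 1. Irf1, Irf2, Irf5, Irf7, Irf8 and Irf9 stand higher in all 3 M1 libraries than in any other library, and in Irf3 the diamond stands highest, at 71.5 CPM.

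In M1 medium 6 of the 7 tested members rose against M0 and none fell, where 25.7% of all genes were called, 12.2% higher and 13.5% lower. The members that rose were Irf1, Irf2, Irf5, Irf7, Irf8 and Irf9, and the exception was Irf3. Irf8, with 6, 0 and 4 counts in M0, M2 and TAM, passed the filter on low counts only through M1. Its calls between M1 and the other groups were thus partly set by that filter. In M2 medium 0 of 7 changed, and the background was 0.0% (0 of 14591 genes in edgeR's test). In TAM medium 3 of 7 were called, where 50.5% of all genes were (23.3% higher and 27.2% lower), so the share of members was not above that of genes at large. Irf2 and Irf5 were the members that rose with TAM medium, and Irf1 fell. Without M0 replicate 1 the numbers of members called were again 6, 0 and 3, but the background was 47.1%, 0.341% and 66.7%.

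Irf1 is the activator of the family that cells switch on within hours of interferon gamma. Its gene (ENSMUSG00000018899) lies on the plus strand of chr11:53770014-53778374 in mm10. Irf1 stood at 17.3, 11.8 and 13.5 CPM in the M0 libraries, and at 684, 685 and 681 CPM in M1. It stood at 11.7, 14.0 and 14.7 CPM in M2 and at 10.6, 10.4 and 11.05 CPM in TAM. The M1 libraries were far above all others, and the TAM libraries were below every M0 and M2 library by a small margin. From M0 (14.2 ± 2.82 CPM, SD, n = 3) to M1 (683.4 ± 2.08), Irf1 rose by 5.59 ± 0.16 on the log2 scale (SE, adjusted p = 1.61e-09). From M0 to TAM (10.7 ± 0.332) it fell by 0.41 ± 0.14 on the log2 scale (adjusted p = 0.0296). That small fall was -0.26 without M0 replicate 1 (adjusted p = 0.0109), and it was no longer called when any 1 TAM library was left out (adjusted p 0.0569 to 0.0804). M2 lay at 13.5 ± 1.54 CPM, with a difference of -0.07 from M0 (adjusted p = 0.758) that became 0.09 without M0 replicate 1 (adjusted p = 0.883). The difference of TAM from M2 was -0.34 and not called (adjusted p = 0.072). It was called without M0 replicate 1 (-0.35, adjusted p = 0.000119), without M0 replicate 2 (adjusted p = 0.0398), without M2 replicate 1 (adjusted p = 0.0453) and in a fit of M2 and TAM alone (adjusted p = 0.0045). By mean level M1 came first and TAM last, while the order of M0 and M2 turned with M0 replicate 1: replicates 2 and 3 of M0 had a mean of 12.6 CPM. An antisense predicted gene, Gm17334, shares 3.4% of the exon bases of Irf1 and stood at 16.7 CPM in M1.

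Irf2 binds the same sites as Irf1 and was first described as its repressor. Its gene (ENSMUSG00000031627) lies on the plus strand of chr8:46739732-46847458. Irf2 stood at 6.52, 13.1 and 14.2 CPM in M0 and at 50.2, 50.8 and 49.4 CPM in M1. It stood at 11.4, 12.8 and 12.7 CPM in M2 and at 23.6, 22.7 and 22.5 CPM in TAM. The M1 libraries were highest and the TAM libraries came next, with no overlap with M0 or M2. Irf2 rose by 2.15 ± 0.22 on the log2 scale with M1 medium (adjusted p = 3.96e-05) and by 1.02 ± 0.22 with TAM medium (adjusted p = 0.00263). The low M0 point was replicate 1, and without it the TAM difference was 0.74 ± 0.09 (adjusted p = 4.26e-10). TAM was also above M2, by 0.89 ± 0.22 (adjusted p = 0.0062), and below M1, by -1.13 ± 0.21 (adjusted p = 0.00129). M2 differed from M0 by 0.13, which was not called (adjusted p = 0.737) and became -0.15 without M0 replicate 1 (adjusted p = 0.805).

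The balance of the activator and the repressor was read as the ratio of Irf1 to Irf2 in CPM per kilobase of merged exons. Comparisons of level between genes depend on the exon lengths used. The ratio was 4.93, 1.67 and 1.77 in M0, 25.3, 25.1 and 25.6 in M1, 1.92, 2.03 and 2.15 in M2, and 0.833, 0.854 and 0.913 in TAM. On this scale Irf1 had the higher level in all libraries but those of TAM, where Irf2 had it in 3 of 3. That order rests on exon lengths of 3976 bp for Irf1 and 7396 bp for Irf2. Ratios of raw counts were 2.65, 0.895 and 0.949 in M0 and 1.03, 1.09 and 1.15 in M2. They were 0.448, 0.459 and 0.491 in TAM, so by counts Irf2 also led in M0 replicates 2 and 3. The mean log2 ratio was 3.38 higher in M1 than in M0, and it was 1.49 lower in TAM (a log2 difference of -1.49) with no overlap in either comparison. Both values include M0 replicate 1, whose ratio of 4.93 raised the M0 mean. Without it the TAM difference would be smaller and the M1 difference larger. Between TAM and M2, which leaves the outlying M0 library aside, the log2 difference was -1.23, again without overlap. Each of these 3 differences had p = 0.1 in the exact two-sided permutation test, the smallest that 3 libraries against 3 allow. The M2 and M0 ratios overlapped (p = 1.0, exact permutation test).

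**Figure D2:**
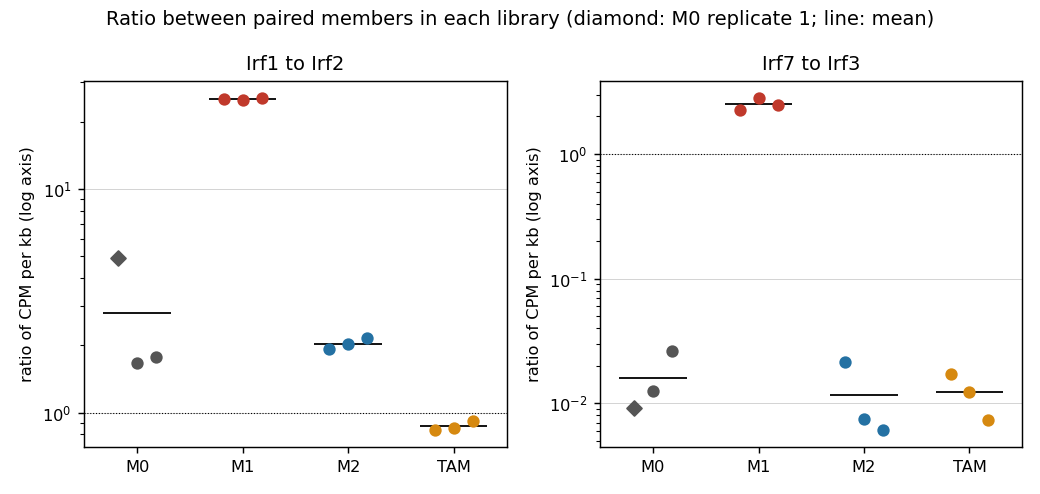
Ratio of Irf1 to Irf2 and of Irf7 to Irf3 by library (vertical log axis, ratio of CPM per kilobase of exon, horizontal axis the 4 groups). Points are libraries, and the line at 1 marks equal levels per kilobase. The TAM points of Irf1 to Irf2 lie between 0.833 and 0.913, below the line, and the M1 points of Irf7 to Irf3 lie between 2.26 and 2.83, above it.

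Irf9 is the DNA-binding subunit of ISGF3. Its gene (ENSMUSG00000002325) lies on the plus strand of chr14:55603571-55610030. Irf9 stood at 7.58, 7.13 and 7.62 CPM in M0 and at 68.3, 74.4 and 73.5 CPM in M1. It stood at 6.52, 6.69 and 10.01 CPM in M2 and at 9.20, 7.32 and 7.78 CPM in TAM. All M1 libraries were high, and the other 3 groups overlapped. Irf9 rose by 3.27 ± 0.16 on the log2 scale with M1 medium (adjusted p = 8.88e-08), while the differences from M0 were 0.05 with M2 (adjusted p = 0.855) and 0.12 ± 0.16 with TAM (adjusted p = 0.555). Rnf31, a ubiquitin ligase gene on the same strand, shares 2.28% of the exon bases of Irf9 and stood at 17.9 CPM in M0 and 70.1 CPM in M1. Reads in the shared bases could have been counted to either gene. Stat2, which encodes a partner of Irf9, rose with it in M1, from 15.2 to 339 CPM (4.48, adjusted p = 5.12e-09). In TAM medium Stat2 stood at 14.2 CPM (-0.10, not called).

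Irf3 and Irf7 are the closely related factors that drive type I interferon genes, Irf3 as a constitutive protein and Irf7 as the one that interferon itself induces. The Irf3 gene (ENSMUSG00000003184) lies on the plus strand of chr7:44997648-45002848 and the Irf7 gene (ENSMUSG00000025498) on the minus strand of chr7:141262706-141266481. Irf3 stood at 71.5, 31.9 and 29.7 CPM in M0, at 27.4, 23.9 and 27.3 in M1, at 30.6, 29.9 and 32.8 in M2 and at 35.7, 37.0 and 31.2 in TAM. Apart from M0 replicate 1, all libraries lay within a narrow band, with M1 at its lower end. The M1 difference from M0 was -0.76 ± 0.28 and was not called (adjusted p = 0.0654). Without M0 replicate 1 it was -0.19 (adjusted p = 0.0569), and the mean of the remaining M0 libraries was 30.8 CPM. The TAM difference from M0 changed sign in that fit, from -0.36 (adjusted p = 0.295) to 0.17 (adjusted p = 0.0619), and the M2 difference from -0.51 to 0.02. Irf3 has shorter exons than most members, 3442 bp in all, and the reads of M0 replicate 1 fell on shorter genes. The part of that library's length profile in the Irf3 values was not tested.

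Irf7 stood at 0.72, 0.44 and 0.86 CPM in M0 and at 67.8, 74.4 and 74.2 CPM in M1. It stood at 0.72, 0.25 and 0.22 CPM in M2 and at 0.68, 0.50 and 0.25 CPM in TAM. It was near 0 in every group but M1, where all 3 libraries were high. Irf7 rose by 6.70 ± 0.31 on the log2 scale with M1 medium (adjusted p = 4.86e-08). The differences of M2 (-0.79, adjusted p = 0.535) and TAM (-0.53, adjusted p = 0.328) from M0 were not called. Per kilobase, Irf7 had 0.00924 to 0.0265 times the level of Irf3 in M0 and 2.26 to 2.83 times that level in M1. The order of the pair was thus inverted in M1, with a log2 difference in ratio of 7.43 (p = 0.1, exact permutation test, the smallest possible).

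Irf5 carries signals from Toll-like receptors through MyD88 and is best known from myeloid cells. Its gene (ENSMUSG00000029771) lies on the plus strand of chr6:29526625-29541871. Irf5 stood at 0.56, 0.88 and 0.43 CPM in M0 and at 16.7, 16.6 and 17.1 CPM in M1. It stood at 0.72, 0.40 and 0.55 CPM in M2 and at 2.19, 2.14 and 1.91 CPM in TAM. The 3 TAM libraries were above all M0 and M2 libraries and far below M1. Irf5 rose by 4.77 ± 0.23 on the log2 scale with M1 medium (adjusted p = 5.06e-08) and by 1.76 ± 0.24 with TAM medium (adjusted p = 0.00014). TAM was above M2 by 1.90 ± 0.24 (adjusted p = 9.24e-05), and M2 differed from M0 by -0.14 (adjusted p = 0.839). Tnpo3, an import receptor gene on the opposite strand, overlaps 14.2% of the exon bases of Irf5. It stood between 232 and 272 CPM in the 4 group means. Strand use in counting is not given in the sources used here, and the part of Tnpo3 reads in the Irf5 counts was not tested.

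Irf8 is a factor of monocytes, dendritic cells and B cells that interferon gamma also induces in other cells. Its gene (ENSMUSG00000041515) lies on the plus strand of chr8:120736358-120756694. Irf8 had 1369, 1335 and 1506 counts in the M1 libraries, or 71.3, 77.6 and 74.7 CPM. It had 3, 0 and 3 counts in M0, 0 in every M2 library, and 1, 2 and 1 counts in TAM. It was thus close to undetected outside M1, and 0 counts in M2 allow a level of up to 0.0518 CPM. From counts summed over a group and divided by its TMM-scaled totals, the M1 level was 679.6 times that of M0, with a 95% exact conditional binomial interval of 312 to 1853, and at least 1438-fold higher than M2 where the floor for M2 was set at 3 counts in the whole group. Against TAM the ratio was 1100.1 (interval 429 to 4039.5). Intervals and floor cover counting error only, because counts were summed over a group and the spread between libraries was left out. They also take reads as independent, which was not tested. In the fit the rise over M0 was 9.33 ± 0.30 on the log2 scale (adjusted p = 4.02e-08). TAM was also called above M2 (adjusted p = 0.0474), on 4 counts against 0, a call that DESeq2 did not make.

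Irf4, the lymphocyte and melanocyte member, lay below the filter. Its gene (ENSMUSG00000021356) is on the plus strand of chr13:30749226-30766976. Irf4 had 1, 1 and 6 counts in M0, 3, 1 and 0 in M2, and 0 in every M1 and TAM library, which allows up to 0.0530 CPM in M1 and 0.0507 CPM in TAM. From summed counts, M0 had 2.12 times the level of M2, with an interval of 0.567 to 9.60 that includes equal levels. With M1 and TAM set at the floor, the M0 level was 2.75 times that of M1 and 2.88 times that of TAM. These ratios rest on 8 counts in M0, of which 6 came from 1 library. They leave out the counting error of M0 and so are not lower limits. No test was made at this depth.

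Since Irf5 and Irf8 mark myeloid cells, macrophage markers were read in the same libraries. Of 23 markers, 8 had no count in any library, among them Ptprc, the pan-leukocyte surface phosphatase, and Adgre1, Itgam and Tyrobp. The summed level of the 23 was 22.9 to 25.1 CPM in M1, against 5.32 to 8.75 in M0, 5.55 to 6.62 in M2 and 3.79 to 4.82 in TAM. Most of the excess in M1 was Mpeg1 (886 counts against 1 in M0), a pore-forming protein gene. Ctss (82 against 0), a lysosomal protease gene, and Cd68 (4.47 CPM against 3.01) also stood higher. Cd68 was not called (0.58, adjusted p = 0.0767) but was called without M0 replicate 1 (0.80, adjusted p = 0.00338). Of the 6 tested markers, 2 were called higher in M1 and 1 lower, where 25.7% of all genes were called. The fall was in Fcer1g, from 0.916 to 0.323 CPM (-1.51, adjusted p = 0.0231). Without M0 replicate 1, 3 were called higher and 0 lower, against 47.1% of all genes. Fcer1g then had an adjusted p of 0.0556. The macrophage growth factor receptor Csf1r had 0, 3, 1 and 4 counts and Spi1, the myeloid master regulator, 11, 4, 12 and 11 counts in M0, M1, M2 and TAM. The lysosomal protein gene Cd68 had 163, 254, 136 and 89 counts and the lysozyme gene Lyz2 had 50, 43, 58 and 63. In M1, where Irf8 had 4210 counts, Csf1r and Spi1 therefore had fewer than 5. The 6 dendritic cell markers summed to 10.3 to 17.4 CPM in M0, 10.6 to 13.8 in M1, 11.5 to 13.2 in M2 and 17.5 to 19.1 in TAM. Nearly all of that was Zbtb46, whose mean was 14.1, 12.6, 12.2 and 18.1 CPM, while Flt3, Itgax and Siglech had no count in any library. Zbtb46 was called higher in TAM than in M1 and in M2, and the part of such cells in the Irf values was not tested. The markers of B and T cells summed to at most 1.09 CPM in any library. All 10 melanocyte markers were present, with sums of 13854 to 22877 CPM.

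Irf1, Irf2, Irf5, Irf7, Irf8 and Irf9 also separated M1 from TAM and from M2 medium. TAM against M1 gave 6 of 7 members lower, where 43.0% of all genes were called and 23.3% were called lower (7 of 7 members changed without M0 replicate 1, where 70.1% of all genes did). The differences ran from -1.13 for Irf2 to -9.97 for Irf8. Irf3 differed by 0.40 ± 0.27 (adjusted p = 0.268), and by 0.36 ± 0.07 without M0 replicate 1, where it was called (adjusted p = 2.35e-05). A fit of M1 and TAM alone also called Irf3 (0.40, adjusted p = 3.66e-06). M1 against M2 gave 6 of 7 higher, where 17.2% of all genes were called, 9.72% higher and 7.5% lower (48.3% in either direction without M0 replicate 1). Irf1 differed by 5.66 and Irf7 by 7.48 in that comparison (adjusted p = 1.77e-09 and 3.38e-08). Irf3 differed by -0.25 (adjusted p = 0.658), and by -0.21 without M0 replicate 1, where it was called (adjusted p = 0.0152). It was also called in a fit of M1 and M2 alone (-0.21, adjusted p = 0.0159). TAM against M2 gave 3 of 7 higher, Irf2, Irf5 and Irf8, where 43.2% of all genes were called and 20.7% were called higher. Without M0 replicate 1 it gave 4 of 7, now with the fall of Irf1 (-0.35, adjusted p = 0.000119), against 69.5% of all genes. Comparisons that share a group share its libraries and are not independent of each other.

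**Figure D3:**
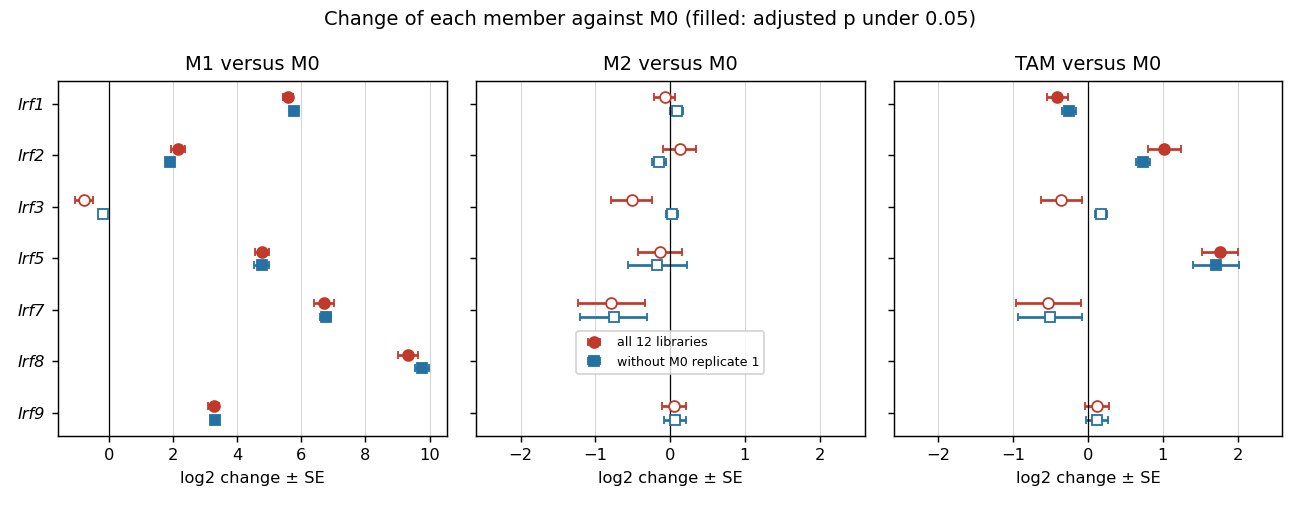
Log2 change of the 7 tested members against M0 for M1, M2 and TAM medium (horizontal axis, log2 fold change, bars are 1 SE), with and without M0 replicate 1. Irf8 is drawn for M1 medium only, at its fitted value, which rests on 6 counts in M0. Irf3 in M1 moves from -0.76 to -0.19 when that library is left out, while the other members in M1 stay well above 0.

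The make-up of the family also differed between groups when levels were compared per kilobase. The 8 genes summed to 19.8 ± 6.96 CPM per kilobase in M0, 15.8 ± 1.06 in M2 and 18.2 ± 0.998 in TAM, and to 235.1 ± 1.66 in M1 (SD, n = 3). The M0 sums ran from 15.7 to 27.8, the highest in replicate 1. The place of the M0 mean above M2 and TAM came from that library. Irf3 was the leading member in M0, M2 and TAM, with 62.7%, 57.1% and 55.2% of the sum. Within M0 its share ran from 54.6% to 74.7%, the highest in replicate 1. In M1 Irf3 gave 3.24% and Irf1 gave 73.1 ± 0.556%, followed by Irf7 (8.13%), Irf9 (5.69%) and Irf8 (4.49%). The second member was Irf1 in M0 (18.6%) and M2 (21.4%) but Irf2 in TAM (17.0%, with Irf1 at 14.8%). The order of Irf1 and Irf2 again rests on the exon lengths used. Irf5 made up 3.93% of the sum in TAM and 2.46% in M1, although its level per kilobase was higher in M1.

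**Figure D4:**
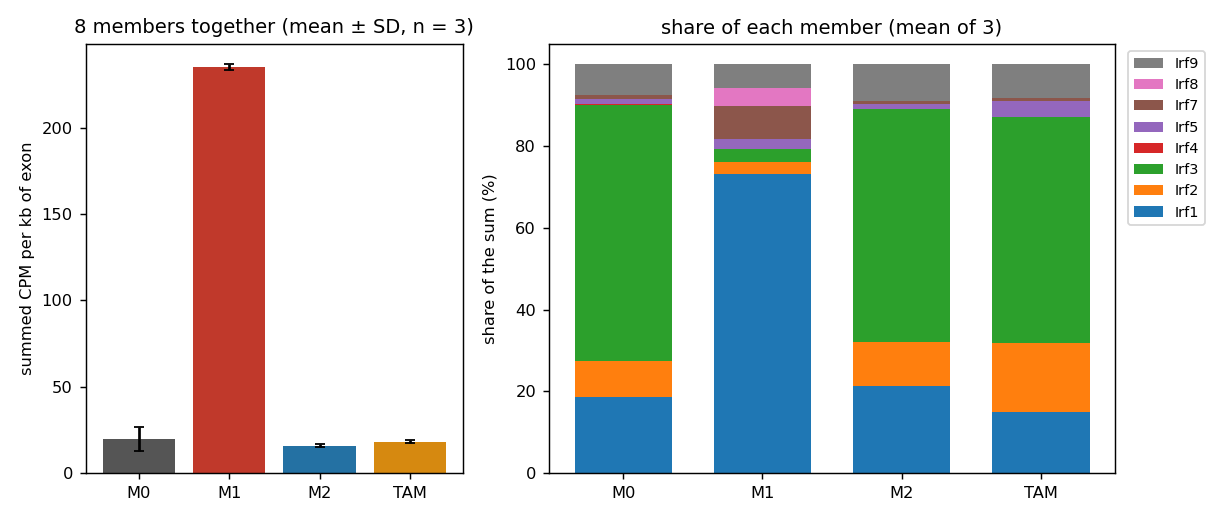
Summed level of the 8 genes (left, CPM per kilobase of exon, bars are means and whiskers SD of 3 libraries) and the share of each gene in that sum (right, percent, mean of 3 libraries), by group. Irf3 fills 55.2% to 62.7% of the M0, M2 and TAM bars, and Irf1 fills 73.1% of the M1 bar. The M0 bars include replicate 1, with a sum of 27.8 and an Irf3 share of 74.7%.

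Genes that act upstream of the family were read next. Of 9 interferon genes none passed the filter: Ifnb1 had 3 counts in M1 and Ifne 1 in M2 and 2 in TAM. Of 9 interferon receptors and their kinases, 4 rose and 1 fell in M1 (5 and 2 without M0 replicate 1), with a median log2 change of 0.34 against -0.02 over all genes, of which 25.7% were called (47.1% without that library). Ifnar2, a subunit of the type I receptor, rose from 24.6 to 46.3 CPM (0.91), and the shared kinase Jak1 rose from 143 to 262 CPM (0.87, adjusted p = 0.013). Il10rb, a type III receptor subunit, fell (-1.08). With TAM medium 1 of the 9 rose, Jak1 (0.59, adjusted p = 0.0389, and 0.31 without M0 replicate 1), and 3 fell, among them Tyk2 (-0.55), with a median of -0.06. With that library left out these were 3 and 5, with a median of -0.24. Thus 8 of 9 were called in place of 4, where the share over all genes went from 50.5% to 66.7%. Of 6 tested STAT genes, 3 rose in M1, among them Stat2 and Stat3, and none fell, with a median of 1.27. In the fit that leaves out M0 replicate 1, 4 rose, now with Stat6 (0.14, adjusted p = 0.01), and Stat5a fell (-0.20, adjusted p = 0.0198). In TAM 1 rose, Stat3 (0.57), and 2 fell (1 and 3 without M0 replicate 1).

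Among 13 kinases and adaptors that act on Irf3, Irf5 and Irf7, 5 rose and 2 fell in M1 (median 0.33), and 4 rose and 4 fell in TAM (median -0.01). Over all genes 25.7% were called in M1 and 50.5% in TAM. Myd88, the adaptor of Irf5 and Irf7, rose from 9.34 CPM in M0 to 21.8 in M1 (1.22) and 18.5 in TAM (0.98), and the kinase Irak4 rose in both (0.49 and 0.45). Tmem173, the gene of the adaptor STING, rose in M1 (0.85) and fell in TAM (-0.56, and -0.35 without M0 replicate 1), as did the Irf3 kinase gene Ikbke (0.47 and -1.01). Slc15a4, a lysosomal transporter required for Irf5 activation, fell in both (-0.70 and -0.98). Without M0 replicate 1, the counts in M1 were 9 higher and 2 lower (median 0.21), and in TAM 4 higher and 7 lower (median -0.21). The shares over all genes were then 47.1% and 66.7%.

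Of 10 tested cofactors and repressors, 2 rose and 1 fell in M1 (median 0.23), and 4 rose and 3 fell in TAM (median -0.44), where 25.7% and 50.5% of all genes were called. When M0 replicate 1 was left out, 4 rose and 2 fell in each comparison, with medians of 0.01 and 0.00. Batf2, a partner of Irf1 and Irf8 at composite sites, went from 0.161 to 127.7 CPM in M1 (9.55), and Trim21, a ubiquitin ligase that binds several members, from 4.65 to 100.4 CPM (4.43). Batf2 passed the filter on low counts only through M1. In TAM the corepressor genes of Irf2 moved apart from each other. Irf2bp2 rose from 58.6 to 179 CPM (1.61, adjusted p = 1.96e-07) and Irf2bpl rose by 0.83 (adjusted p = 0.0023), while Irf2bp1 fell from 67.9 to 34.9 CPM (-0.96).

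Known target genes were read in separate lists for Irf1 and for Irf9 with ISGF3, although many such genes answer to both. In M1, 14 of 14 tested Irf1 targets rose, with a median of 7.88 (7.02 with 2 genes that had no M0 count set at their bound), and 16 of 16 Irf9 and ISGF3 targets rose, with a median of 6.14, where 12.2% of all genes were called higher. Ciita, Psmb8, Psmb9 and Nos2, and Oas2 and Oas3 in the other list, passed the filter on low counts only through M1. Their calls were thus partly set by that filter. Casp1 and Ido1 were not tested in this fit, with 35 and 0 counts in M1. Nlrc5, the transactivator of MHC class I genes, went from 0.622 to 384 CPM, the peptide transporter gene Tap1 from 1.58 to 543 CPM and B2m, the class I light chain gene, from 173.5 to 2833 CPM. Isg15, a ubiquitin-like modifier gene, went from 3.00 to 488 CPM and the antiviral gene Ifit1 from 2.87 to 286 CPM. In TAM, 4 of the 14 Irf1 targets rose and 2 fell (median 0.31), where 23.3% of all genes were called higher and 27.2% lower. Leaving out M0 replicate 1 gave 8 and 2 of 15 tested (median 0.72), and 66.7% of all genes were called. Nlrc5 was among those that rose (1.66, adjusted p = 0.000197), and Il15, a lymphocyte growth factor gene, fell (-1.95). Of the 16 Irf9 and ISGF3 targets, 10 rose in TAM and 1 fell, with a median of 1.22, against the same 23.3% and 27.2% over all genes (9 and 2 without M0 replicate 1). Ifit1 reached 14.6 CPM (2.34, adjusted p = 5.19e-06), Isg15 14.6 CPM (2.28) and the antiviral enzyme gene Rsad2 34.4 CPM (1.26), while Mx1 fell from 2.47 to 1.42 CPM (-0.80). In the same libraries Irf9, Irf7 and Stat2 were not called against M0. With M2 medium 0 genes of any list were called by edgeR's test on all 12 libraries. Without M0 replicate 1, Stat3 was called higher (0.67, adjusted p = 6.76e-14) and 3 pigment genes were called lower.

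Pigment genes were read because Irf4 acts on them in melanocytes. Of 12, 7 fell in M1 and none rose (median -0.83). In TAM 9 fell and 1 rose (median -1.08). With M0 replicate 1 left out, 10 fell and 1 rose in each comparison. Over all genes 13.5% were called lower in M1 and 27.2% in TAM. Pmel, the melanosome fibril protein gene, went from 5717 CPM in M0 to 2418 in M1 and 1583 in TAM. Irf4 was at 0 counts in those groups, but it was also near 0 in M0 and M2.

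**Figure D5:**
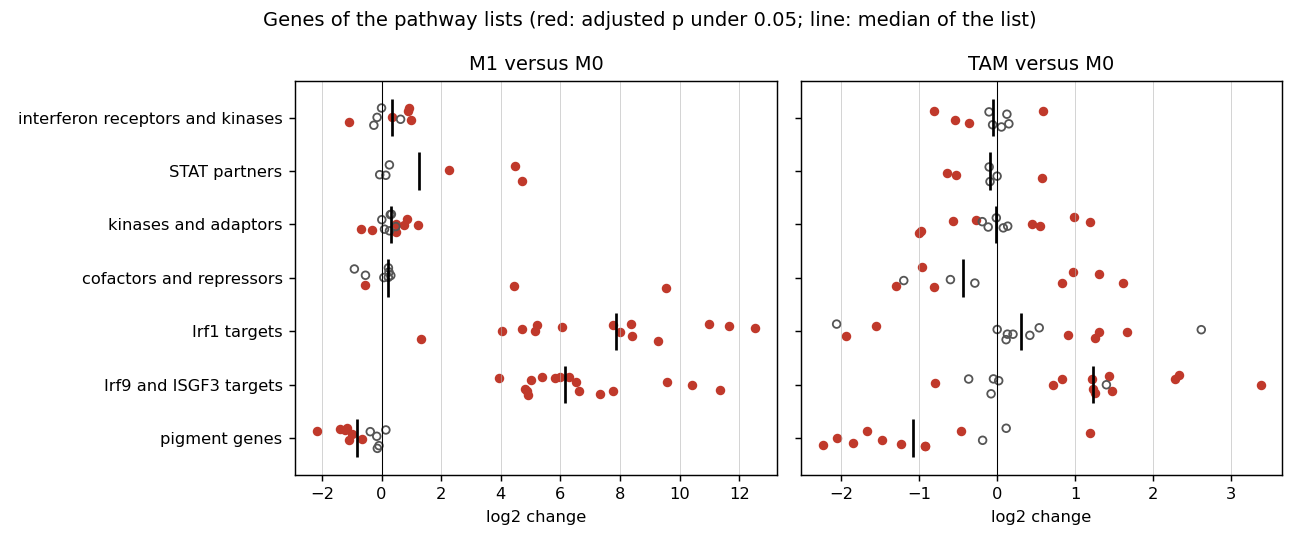
Log2 change against M0 of the tested genes of each pathway list in M1 and TAM medium (horizontal axis, log2 fold change, 1 row per list). Points are genes, filled where called, and the vertical mark is the median of the list. Both target lists lie to the right of 0 in M1, with medians of 7.88 and 6.14, while in TAM their medians are 0.31 and 1.22. Without M0 replicate 1, which is not drawn, the TAM medians are 0.72 and 0.97.

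The genes whose profiles over the 12 libraries were nearest to each member were found by the root mean square difference of log2 profiles centred on their means, among 11153 genes. Nearest to Irf2 were Adar, the RNA-editing enzyme gene, at 0.121, and Plxnc1, a semaphorin receptor gene, at 0.180. Adar stood at 55.4 CPM in M0, 225 in M1, 66.3 in M2 and 110.3 in TAM, so it had the TAM step that Irf2 has. Nearest to Irf5 were Tapbpl (0.263), Gsdmd (0.292) and Sema3g (0.370), which also had intermediate TAM levels, as with Tapbpl at 6.61 CPM in M0, 134 in M1, 5.43 in M2 and 15.6 in TAM. Nearest to Irf3 were Atn1 (0.0726) and Atg101 (0.0789), genes that also had their highest mean in M0. For Irf3 that maximum came from M0 replicate 1, since the mean of replicates 2 and 3 (30.8 CPM) was below those of M2 (31.1) and TAM (34.6). Irf8 was nearest to Oas3 (0.153), Apol10b and Mndal, and among the nearest to Irf9 were H2-Aa (0.174) and Nmi (0.182), all with an M1 mean well above those of the other groups. Irf1 was nearest to Ifi207 (0.232), Clec2d and Mx1, and Irf7 to Gbp8, Psmb8 and Ifi207. With a pseudocount of 1 in place of 0.5, all 3 neighbours of Irf3 and 2 of 3 of Irf2 and of Irf8 stayed, but 1 of 3 for Irf1, Irf5 and Irf9 and 0 of 3 for Irf7, so those lists depend on how low values are treated.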

How the data were processed

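The authors deposited raw read counts per Ensembl gene, 1 column for each of 12 libraries. Total RNA was extracted with Trizol for Illumina mRNA libraries, per the labels' protocols. The submitters' processing notes name HISAT2 2.0 and mm10. What counted the reads, on which annotation and with which strand setting is not given in the sources used here, so reads of overlapping genes cannot be divided. Columns were matched to samples by title, and symbols, coordinates and exon lengths came from GENCODE M21 (GRCm38), with 55141 of 55487 identifiers matched.

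Counts were analysed with edgeR 4.0.16 in R 4.3.3: filterByExpr by group, TMM scaling and 1 robust quasi-likelihood fit of all 12 libraries with a mean per group. Each of 6 comparisons was adjusted by Benjamini-Hochberg over 14591 genes. SE is the absolute log2 change divided by the square root of F. The script recovered known changes in simulated counts, and the share recovered at each size of change is not reported here. All simulated libraries shared 1 mean profile apart from those changes. None stood apart as M0 replicate 1 did, so recovery beside such a library was not tested. Ratios of low counts have exact conditional binomial intervals at 95% confidence, and the floor is 3 counts over a group. Promoter windows came from RefSeq (GRCm38.p6).

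Genes named from each list were those with the smallest adjusted p, up to 4 in M1 and up to 3 in TAM. Mpeg1, Ctss, Fcer1g and the overlapping neighbours were named after their values were seen. A few genes picked by this rule are not reported here. The members and lists were chosen with earlier results of these data known. Alternatives were DESeq2 1.42.0, limma 3.58.1 voom, RLE and upper-quartile factors, no filter, levels without TMM, a fit of the compared groups alone, a replicate block and leaving out each library.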

Additional observations from a re-analysis of the deposited data

How the results depend on the processing

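Of 38 member changes, 24 kept their direction and their side of the threshold under all 19 alternatives run (12 that leave out a library and 7 others). Irf8 entered these 38 only in M1 against M0 and TAM against M1. Its other comparisons, among them the call of TAM above M2 that DESeq2 did not make, were left out. The number of members called stayed at 6 to 7 for M1 against M0, TAM against M1 and M1 against M2, at 0 for M2 against M0, at 2 to 3 for TAM against M0 and at 2 to 4 for TAM against M2. The fall of Irf1 in TAM against M0 lost its call in the fit without a filter (adjusted p = 0.0558), in the fit of M0 and TAM alone (adjusted p = 0.118) and with each TAM library left out. Irf3 in M1 against M0 was called by DESeq2 (-0.73) and without M0 replicate 2 or 3 (-0.94 and -0.98). The changes that reversed did so only when a library was left out, and none was called. Their ranges in M2 against M0 were -0.189 to 0.0906 for Irf1, -0.15 to 0.33 for Irf2, -0.736 to 0.0223 for Irf3, -0.37 to 0.17 for Irf5 and -0.18 to 0.16 for Irf9. The range was -0.59 to 0.17 for Irf3 in TAM against M0, and in TAM against M2 it was -0.0907 to 0.991 for Irf7 and -0.0498 to 0.287 for Irf9. The cause was not tested.

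Counts of all genes called moved more: for M1 against M0, 3744 became 1282 in a fit of those groups alone and 2287 to 7056 with 1 library left out. For M2 against M0 the 0 became 4 with DESeq2 and 51 without M0 replicate 1, stayed at 0 with limma, and 980 genes, 1 of them a member, had an unadjusted p under 0.05. TAM against M0 went from 7372 to 4619 in a fit of those groups alone. With M0 replicate 1 left out the shares called were 47.1%, 0.341% and 66.7% for M1, M2 and TAM against M0, 70.1% for TAM against M1, 69.5% for TAM against M2 and 48.3% for M1 against M2.

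In a fit of the compared groups alone, the numbers called in the lists were 2 of the receptors and kinases in M1 (5 in the fit of all groups) and 2 in TAM (4), and 3 of the kinases and adaptors in M1 (7) and 4 in TAM (8). With 1 library left out they were 3 to 8 receptors and kinases in TAM, 3 to 5 STAT genes in M1, 5 to 11 kinases and adaptors in M1, 2 to 6 cofactors in M1, 5 to 10 Irf1 targets in TAM and 7 to 11 pigment genes in M1. Replicate numbers did not pair the libraries: deviations of same-numbered libraries correlated between -0.169 and 0.212, and 4 of 12 libraries correlated best with their own number. With the replicate as a block, 6, 0, 2, 6, 2 and 6 members were called in M1, M2 and TAM against M0, TAM against M1, TAM against M2 and M1 against M2, and the Irf1 difference of TAM from M0 had an adjusted p of 0.0509. Without TMM scaling, 1 of 32 group levels moved by more than its SD. With 3 libraries a group, small differences at the levels of Irf4, and of Irf8 outside M1, were not detectable at this depth.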
